A study of Mus musculus with 24 samples.

Results

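The cells described here are layer 2/3 projection neurons of the mouse primary motor cortex, read out by single-cell RNA sequencing. They were selected on their own raw counts of UMIs (molecules counted once each). A cell had to hold at least 1000 UMIs, at least 500 genes and at most 20% mitochondrial UMIs. It also had to hold at least 1 UMI of Slc17a7, no UMI of Gad1 or Gad2, at least 2 UMIs of Cux2 and Otof together, and none of Rorb, Fezf2, Foxp2, Syt6 or Tshz2. The rule found 1389 cells, which were 7.55% of the 18395 motor cortex cells with Slc17a7 and without Gad1 or Gad2, and 2.76% of the 50361 motor cortex cells that passed the quality filter. All mice were Fos-CreER::Ai9, in which neurons that express Fos while 4-hydroxytamoxifen (4-OHT) is present recombine the Ai9 reporter. The mice learned to reach with a forelimb, and 4-OHT was given after 2 days of training in the early group and after 8 days in the late group, while the control group received 4-OHT without training. By the labels, brains were taken 3 days after labelling and the tissue of 2 mice was pooled by hemisphere and digested with papain, so that each stage had 2 pools, each with 1 library per hemisphere. The labels name the hemispheres contralateral and ipsilateral in trained mice and left and right in controls, and ages were not given in them. Because the Fos driver itself sets which cells recombine, the reporter marks cells that expressed Fos near labelling, and it cannot mark cells whose activity did not raise Fos.

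The pool of mice is the unit of replication, and every fold change and test below compares pools. Members per pool numbered 254 and 315 in control, 207 and 227 in early, and 203 and 183 in late. A member held a median of 9192 UMIs and 3935 genes, and the 6 pools held 1506637 to 3841416 member UMIs. The left library of control replicate 1 stood apart with 29 members. All 24 libraries of the series were divided into classes A and B by how many cell barcodes they shared with each other. The number of classes was set at 2. Per 1e6 pairs of barcodes, 0.789 to 1.75 were shared within A, 0.0360 to 0.565 within B and 0 to 0.437 between classes. The last 2 ranges overlapped. The sources used here do not name a kit for each library. Control replicate 1 and late replicate 1 were of barcode class A and the other 4 pools of class B, so no early pool was of class A. The labels also give a batch: control replicate 1 and late replicate 1 shared one, early replicate 1 and control replicate 2 shared another, and early replicate 2 and late replicate 2 each stood alone. In these pools, class A and the first batch cannot be told apart. The labels list for each pool 1 mouse with a name starting in M and 1 starting in F. Both libraries of control replicate 1 held Y-linked UMIs in 35.7% and 31.6% of Slc17a7 cells, and Xist in 0.870% and 0.0892%. In control replicate 2 the right library had Xist in 94.1% and Y-linked UMIs in 0% of these cells, and the left library had Xist in 0.0885% and Y-linked UMIs in 73.9%. Each trained library held both, with Xist in 18.7% to 53.0% and Y-linked UMIs in 31.1% to 44.0% of cells. If the letters give the sex, the control libraries went against their labels: those of control replicate 2 each held cells of 1 sex, and control replicate 1 held almost no Xist. Which mice the control libraries hold, and so whether left and right came from the same mice, could not be settled here, and these pools are named by their labels. The called genes and the other genes described by stage are for the most part also given without each control pool. No barcode of a member occurred in more than 1 motor cortex library, although 445 barcodes were shared over the 66 pairs of libraries. Scrublet scored 54 members (3.89%) as doublets, and they were kept in the main analysis.

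Layer 2/3 neurons are glutamatergic cells that send axons within the cortex, to neighbouring areas and across the corpus callosum. They pass input from layer 4 and other cortical areas to deeper layers, and in motor cortex their connections are known to change as a skill is learned. Cux2, a homeodomain transcription factor, is carried by neurons of the upper layers. Otof encodes otoferlin, a calcium-binding membrane protein, and Slc17a7 the vesicular glutamate transporter VGLUT1.

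The rule rested mainly on Cux2. Of the members, 82.2% held Cux2 without any Otof UMI, 233 held both genes and 14 held Otof only. The values just inside and outside the threshold are a description, since they come from the same cells. Cells with exactly 2 UMIs of Cux2 and Otof (668 cells) had 626 CPM of Lamp5 (UMIs of a gene scaled to 1e6 UMIs in all) and 504 CPM of Calb1, both genes of upper-layer neurons. Cells with 1 such UMI, which the rule left out (1049 cells), had 546 and 424 CPM. Cells with none (4858 cells) had 128 and 108 CPM. The cells left out with 1 UMI thus resembled members more than they resembled cells with none. A further 797 cells met the Cux2 and Otof criterion but held more than 1 UMI of the 5 genes of deeper layers, and had 245 CPM of Lamp5 and 193 CPM of Calb1. The 328 cells that met it and held exactly 1 UMI of those genes, also left out, had 574 and 441 CPM.

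Members carried the upper-layer program that the rule did not name. They were set beside 3 other classes of Slc17a7 cells without Gad1 or Gad2, named for the layers their genes mark. Layer 4/5 cells held at least 2 UMIs of Rorb and none of Otof, Fezf2, Foxp2, Syt6 or Tshz2. Layer 5 cells (564 cells) held at least 1 UMI of Fezf2 and at least 2 of Fezf2 and Bcl11b together. They held none of Cux2, Otof, Rorb, Foxp2, Syt6 or Tshz2. Layer 6 cells held at least 2 UMIs of Foxp2 and Syt6 together and none of Cux2, Otof, Rorb or Tshz2. The layer 5 and layer 6 cells were thus also chosen for lacking Cux2. Of 25 upper-layer genes on a list, 23 were higher than in layer 6 (3024 cells) in every one of the 6 pools, against 29.8% of the 12655 genes compared. The other 2 were lower in every pool, against 18.3% of genes. Against layer 4/5 (2458 cells), 15 of the 25 were higher in every pool and 6 lower, against 18.6% and 19.3% of genes. All 4 classes were chosen on expression, so these counts describe the cells and are not tests. Lamp5, a membrane protein of the LAMP family, averaged 636 CPM over the 6 member pools (503 to 784), 225 CPM in layer 4/5 and 29.8 CPM in layer 6. Calb1, the calcium buffer calbindin, averaged 534 CPM (490 to 596), 184 CPM in layer 4/5 and 2.51 CPM in layer 6. For both genes every member pool lay above every pool of the other classes. Mef2c, a transcription factor of activity-dependent synapse remodelling, did not separate the upper classes in this way, with 1921 CPM in members and 2146 CPM in layer 4/5.

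The genes that set members furthest from both other classes included peptides, enzymes and adhesion proteins. For each gene the smallest difference from layer 4/5 or layer 6 within any pool was taken, and the 15 genes with the largest such value were named. Only genes that averaged at least 20 CPM in members and were not part of the rule were ranked. Penk, the precursor of the enkephalin opioid peptides (chromosome 4, 4133531 to 4138819, minus strand, GRCm38), headed the list. Its level in the member pools was 115 and 107 CPM in control, 73.8 and 63.6 CPM in early, and 96.2 and 73.7 CPM in late, against a mean of 2.68 CPM in layer 4/5, 11.2 CPM in layer 5 and 1.42 CPM in layer 6. It was detected in 27.9% of members, so that most members held no Penk UMI. Wfs1, the endoplasmic reticulum protein wolframin, averaged 117 CPM in members and 10.2 to 13.7 CPM in the other 3 classes. Dgkb, a diacylglycerol kinase, averaged 251 CPM in members, 76.6 CPM in layer 5 and 19.3 CPM in layer 6. Members were also set apart by Gucy1a1, a subunit of the guanylyl cyclase that senses nitric oxide (177 CPM in members, 31.7 CPM in layer 4/5), and by Lpl, lipoprotein lipase (36.8 and 1.99 CPM). Fst, the activin-binding protein follistatin, averaged 43.8 CPM in members and 0.0688 CPM in layer 6. Emx2, a transcription factor of cortical development, averaged 20.5 CPM in members and 2.75 CPM in layer 4/5. The other genes of this group were Myh7, Evc2, Pcdh8, Trpc6, Ankrd6, Lrrtm4, Jsrp1 and Stum, with member means of 25.8 to 137 CPM.

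**Figure D1:**
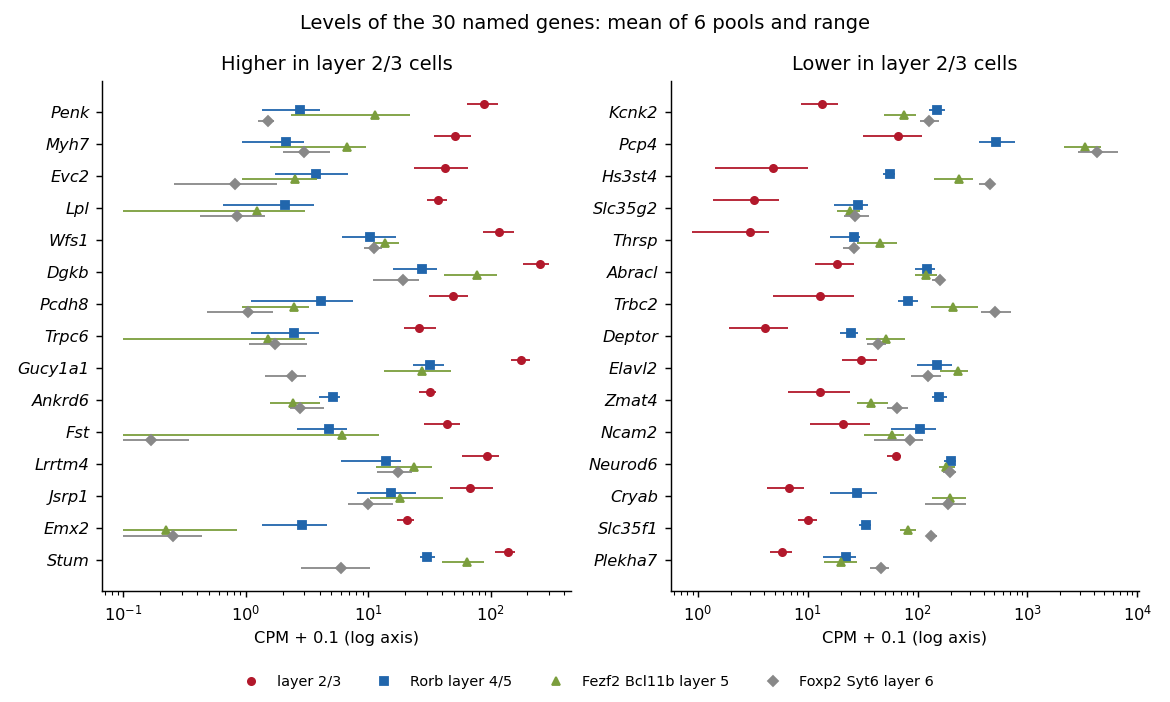
CPM of the 15 genes higher and the 15 genes lower in layer 2/3 cells than in both the layer 4/5 and the layer 6 class, as the mean of 6 pools (symbols) with the lowest and highest pool (lines), on a log axis with 0.1 added. Penk stands at 88.2 CPM in layer 2/3 cells, 2.68 CPM in the layer 4/5 class and 11.2 CPM in the layer 5 class; the red points of the right panel lie below those of the other 3 classes for each gene.

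By the same measure, 15 genes were named that lay lowest in members against both classes, among genes that averaged at least 20 CPM in both. Kcnk2, a background potassium channel, averaged 13.3 CPM in members, 150 CPM in layer 4/5 and 127 CPM in layer 6. Pcp4, a calmodulin regulator, averaged 66.0 CPM in members, 519 CPM in layer 4/5 and 4256 CPM in layer 6. Hs3st4, an enzyme that sulfates heparan sulfate, averaged 4.68, 56.2 and 452 CPM in the same order. Neurod6, a transcription factor of cortical excitatory neurons, averaged 63.2 CPM in members and 197 CPM in layer 6. The remaining 11 genes were Slc35g2, Thrsp, Abracl, Trbc2, Deptor, Elavl2, Zmat4, Ncam2, Cryab, Slc35f1 and Plekha7, with member means of 2.87 to 30.3 CPM.

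Of 24 glutamate receptor genes measured in all classes, 14 were higher in members than in layer 4/5 in every pool and 6 lower. Over all genes 18.6% were higher and 19.3% lower in this way, and the counts below are to be read against those shares. Gria3, an AMPA receptor subunit, averaged 397 CPM in members and 88.4 CPM in layer 4/5, and Grin2b, an NMDA receptor subunit, 806 and 510 CPM. Gria2, the subunit that blocks calcium entry through AMPA receptors, averaged 1156 and 1058 CPM. Of 26 presynaptic genes, 4 were higher than in layer 4/5 in every pool and 16 lower, among them Snap25, a component of the vesicle fusion machinery (4211 and 5525 CPM). Of 27 postsynaptic genes 14 were higher and 7 lower, and of 30 voltage-gated channel genes 11 were higher and 9 lower. Of the receptors for neuromodulators, Chrm3, a muscarinic acetylcholine receptor, averaged 107 CPM in members and 31.7 CPM in layer 4/5, while Htr2a, a serotonin receptor, averaged 21.2 and 50.1 CPM.

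Markers of other cells were found in members at summed levels that differed by cell type. The summed level of 24 deep-layer genes in the files ranged from 191 to 258 CPM over the member pools, against 2901 CPM in layer 6. For 10 genes that mark inhibitory interneurons, the summed 2738 to 4565 CPM came mostly from Cck, a peptide that excitatory neurons also make, at a mean of 3433 CPM. Npy, Sst and Vip averaged 8.38, 4.12 and 3.08 CPM. The 8 astrocyte genes summed to 373 to 512 CPM in members, against a mean of 954 CPM in layer 4/5 and 1373 CPM in layer 6. Most of the member sum came from Slc1a2, a glutamate transporter, at a mean of 402 CPM, which was detected in 90.4% of members, 96.2% of layer 4/5 and 98.9% of layer 6 cells. Of the other astrocyte genes, Gfap had 2, Aqp4 3, Gja1 13 and S100b 16 UMIs in all members. The 9 microglial genes summed to 83.0 to 262 CPM and the 7 oligodendrocyte genes to 79.1 to 212 CPM. The 6 genes of oligodendrocyte precursors summed to 5.44 to 33.8 CPM and the 7 vascular genes to 10.1 to 37.2 CPM. No gene of these lists was at 0 over the member pools.

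The 247 members with an Otof UMI were compared with the others, within each pool and with no test, since Otof was part of the selection; the Otof cells were deeper, with median totals of 10724 and 8961 UMIs. Calb1 averaged 700 CPM in Otof-positive and 495 CPM in Otof-negative members and was higher in all 6 pools. Slc30a3, the transporter that loads zinc into synaptic vesicles, averaged 291 and 186 CPM, Wfs1 165 and 107 CPM, and Meis2, a homeodomain transcription factor, 271 and 180.5 CPM, each higher in 6 of 6 pools. Rasgrf2, Plxnd1, Tle1, Lamp5 and Mef2c were also higher in 6 of 6 pools. Otof-positive members were lower in all 6 pools for Agmat (9.61 and 17.5 CPM), Chrm2 (1.10 and 8.27 CPM), Zmat4 (5.90 and 14.4 CPM) and the transcription factor Pou3f3 (52.8 and 71.1 CPM). Of the 38 genes on the lists of upper-layer and layer 2/3 genes, Otof itself among them, 10 were higher in every pool and 4 lower, against 3.11% and 4.46% of all 12655 genes. Depth differed with Otof, and its part in these values was not tested.

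A few members carried most of the Nr4a2 transcript. Nr4a2 encodes an orphan nuclear receptor that is both an immediate early gene and a marker of some cortical neurons (chromosome 2, 57106830 to 57124003, minus strand). It was detected in 247 members (17.8%), but 25 members with at least 5 UMIs, 1.80% of all, held 655 of its UMIs (67.6%). That threshold was chosen after the values were seen, and what follows describes these cells with no test. Sstr2, a somatostatin receptor, stood at 412 CPM in the 25 cells and 1.67 CPM in the members without Nr4a2. Oprk1, the kappa opioid receptor, was detected in 76% of the 25 cells and in 0.263% of those without Nr4a2. Synpr, a synaptic vesicle protein, stood at 1797 and 68.2 CPM, Gnb4, a G protein beta subunit, at 1064 and 21.7 CPM, and Lxn, the protease inhibitor latexin, at 614 and 29.4 CPM. Of the upper-layer genes, Lamp5 stood at 151 and 662 CPM, Calb1 at 156 and 556 CPM, Rasgrf2 at 56.6 and 298 CPM, and Cux2 at 291 and 288 CPM. Of the immediate early genes, Nr4a3 stood at 59.3 and 18.4 CPM, Fos at 267 and 121 CPM, Fosb at 88.9 and 54.6 CPM, and Nr4a1 at 137 and 168 CPM. By Lamp5, Calb1 and Rasgrf2 the 25 cells were unlike the members without Nr4a2, and whether they are layer 2/3 neurons was not tested. Scrublet scored 3 of the 25 as doublets. The 25 cells numbered 5 and 10 in the control pools, 1 and 3 in the early pools, and 3 and 3 in the late pools.

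To ask whether the share of these neurons differed with training, members were counted as a percentage of all Slc17a7 cells without Gad1 or Gad2. The share was 10.3% (Wilson 95% interval 9.14 to 11.5) and 8.68% (7.81 to 9.64) in the control pools, 9.51% (8.35 to 10.8) and 6.82% (6.01 to 7.72) in the early pools, and 6.23% (5.45 to 7.12) and 5.18% (4.50 to 5.96) in the late pools. The intervals cover counting error only. Both late pools lay below all other pools. Within the labelled batches, late replicate 1 (6.23%) lay below control replicate 1 (10.3%), and early replicate 1 (9.51%) lay above control replicate 2 (8.68%). The late mean was 5.71% ± 0.745 (SD, n = 2) and the control mean 9.48% ± 1.12 (SD, n = 2), a difference of -3.77 percentage points with a two-sided exact permutation p of 0.333, the smallest that 2 against 2 pools can give. The late minus early difference was -2.46 points (exact p = 0.333) and the early minus control difference -1.31 points (exact p = 0.667). Without control replicate 1 the late minus control difference was -2.97 points, and without control replicate 2 it was -4.56 points. A deeper cell passes a threshold of 2 UMIs more easily, but it also more easily holds a UMI of the 5 genes that the rule excludes. The selection was therefore repeated on cells thinned to 3000 UMIs. This left out 258 to 639 Slc17a7 cells per pool that held fewer. The shares were then 5.21% and 2.60% in control, 2.79% and 3.42% in early, and 2.77% and 1.62% in late, and the late and control pools overlapped. The late minus control difference was -1.72 points (exact p = 0.667). A share this small also depends on how well each cell type survived digestion, which was not measured.

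**Figure D2:**
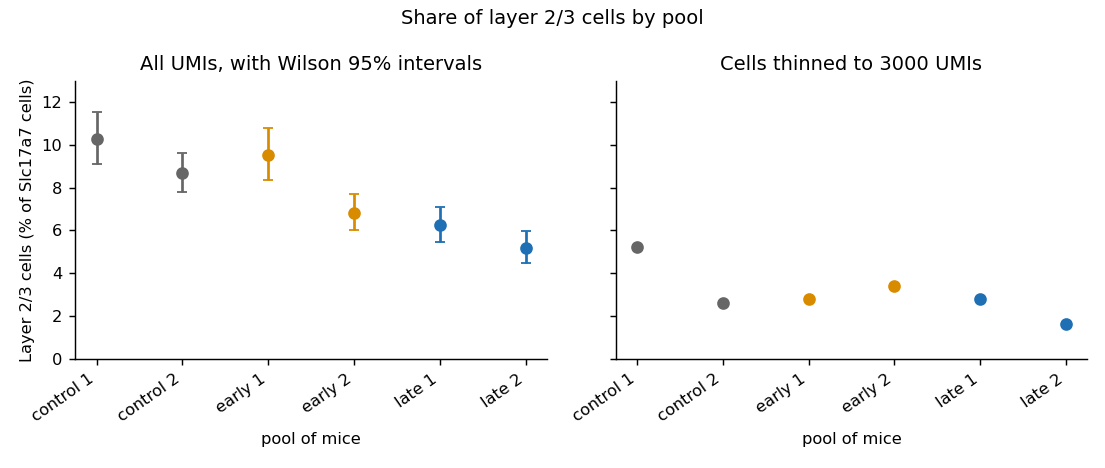
Layer 2/3 cells as a percentage of Slc17a7 cells in each of the 6 pools, from all UMIs with Wilson 95% intervals (left) and after thinning each cell to 3000 UMIs (right). On the left the late pools are the 2 lowest at 6.23% and 5.18%; on the right late replicate 1 at 2.77% lies above control replicate 2 at 2.60%.

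To ask which genes differed between training stages, member UMIs were summed per pool and tested with edgeR's quasi-likelihood test, with stage and barcode class as terms and 2 residual degrees of freedom. The labelled batch was not a term, because stage and the 4 batches together leave no residual degree of freedom. With a control or a late pool left out, 1 residual degree of freedom remains, which comes from the pair of early pools alone. The lone pool of an arm is then assumed to vary as that pair does, so that a call made only in such a fit is given as a value and not as a result. A gene counts as called where its p-value, adjusted by the Benjamini-Hochberg method over all 11811 genes tested, lay under 0.05. The p-values rest on a spread between these pools that edgeR draws toward a value shared over genes, and it may be partly technical. With 2 residual degrees of freedom, the pools of 1 gene can thus lie further apart than its SE shows. Each edgeR SE here and below is the size of the log2 fold change divided by the square root of the F value. In early against control 1 gene was called (0.00847% of those tested), Nr4a2. Its level, scaled by TMM factors, was 64.7 and 107 CPM in the control pools, 34.0 and 41.0 CPM in the early pools, and 52.0 and 85.7 CPM in the late pools. The early pools lay below all 4 others. In the batch that early replicate 1 and control replicate 2 shared, the values were 34.0 and 107 CPM. Few cells held most of its UMIs: the 25 cells with at least 5 UMIs numbered 5 and 10 in control and 1 and 3 in early, and in the other members Nr4a2 was 17.6 and 28.1 CPM in control and 19.3 and 19.8 CPM in early, without TMM scaling, where the groups overlapped. Because those cells were taken out by their Nr4a2 UMIs, the smaller difference among the rest follows in part from that choice and is no test. The log2 fold change of early against control was -1.53 ± 0.19 (SE; edgeR adjusted p = 0.0161). It was -1.53 without control replicate 1 (adjusted p = 1.47e-05), and the call was lost without control replicate 2 (-1.53, adjusted p = 0.0639), without the barcode class term (-1.21, adjusted p = 1.00) and with scored doublets removed (-1.47, adjusted p = 0.248).

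The next genes in early against control did not pass the threshold. Of genes with no overlap between the groups, the smallest unadjusted p-values after Nr4a2 belonged to Sstr2, Ccl4, Gnb4 and Vtn. Sstr2 was 15.3 and 20.1 CPM in the control and 1.98 and 6.40 CPM in the early pools (log2 fold change -2.59 ± 0.45 SE, edgeR adjusted p = 0.181). Gnb4 was 40.7 and 78.3 CPM in the control and 25.1 and 39.0 CPM in the early pools (-1.30 ± 0.23, adjusted p = 0.192). Sstr2 and Gnb4 are also genes that were high in the Nr4a2-rich cells. Without control replicate 1, where the early pools alone supply the spread, the values were -2.48 (adjusted p = 0.00311) and -1.35 (adjusted p = 0.00109). Without control replicate 2 they were -3.21 (adjusted p = 0.0877) and -1.12 (adjusted p = 0.359). Ccl4, a chemokine of activated microglia, was 30.2 and 13.5 CPM in the control and 33.7 and 35.8 CPM in the early pools (1.37 ± 0.24, adjusted p = 0.181), against 10054 CPM in the microglia of these libraries. The value was 1.36 without control replicate 1 (adjusted p = 0.00918) and 1.40 without control replicate 2 (adjusted p = 0.243). Beside it, all 9 microglial genes tested had a positive early against control value (50.7% of all genes), 3 of them at an unadjusted p under 0.05 (1.19% of all genes, in that direction), none called. Their summed level was 262 and 103 CPM in control, 252 and 83.1 CPM in early, and 177 and 83.0 CPM in late, so that replicate 1 was the higher pool in each stage. Its part in the Ccl4 value was not tested.

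Late against control and late against early each called 2 genes (0.0169% of genes in both), of which Hbb-bt is described here. The 3 stage comparisons share pools and are not independent. Hbb-bt, a beta globin gene of red blood cells (chromosome 7, 103812524 to 103813996, minus strand), was 2.63 and 3.30 CPM in control, 2.97 and 4.48 CPM in early, and 6.87 and 58.9 CPM in late. Late replicate 2 alone was high, and 82 of its 88 UMIs lay in 1 cell of the ipsilateral library. The log2 fold change was 3.43 ± 0.48 (SE) against control (edgeR adjusted p = 0.0277) and 3.85 ± 0.49 against early (adjusted p = 0.00819). Against control the call was lost without late replicate 2 (1.38, adjusted p = 0.925) and without control replicate 2 (1.37, adjusted p = 0.905), and it was 4.13 without control replicate 1. It was also lost with DESeq2 (adjusted p = 0.179), without the barcode class term (1.00) and with scored doublets removed (0.0575). Against early it was lost without late replicate 2 (1.29, adjusted p = 0.999) and without the barcode class term (adjusted p = 1.00). Globin genes are close copies of each other, so that reads can be split between them.

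**Figure D3:**
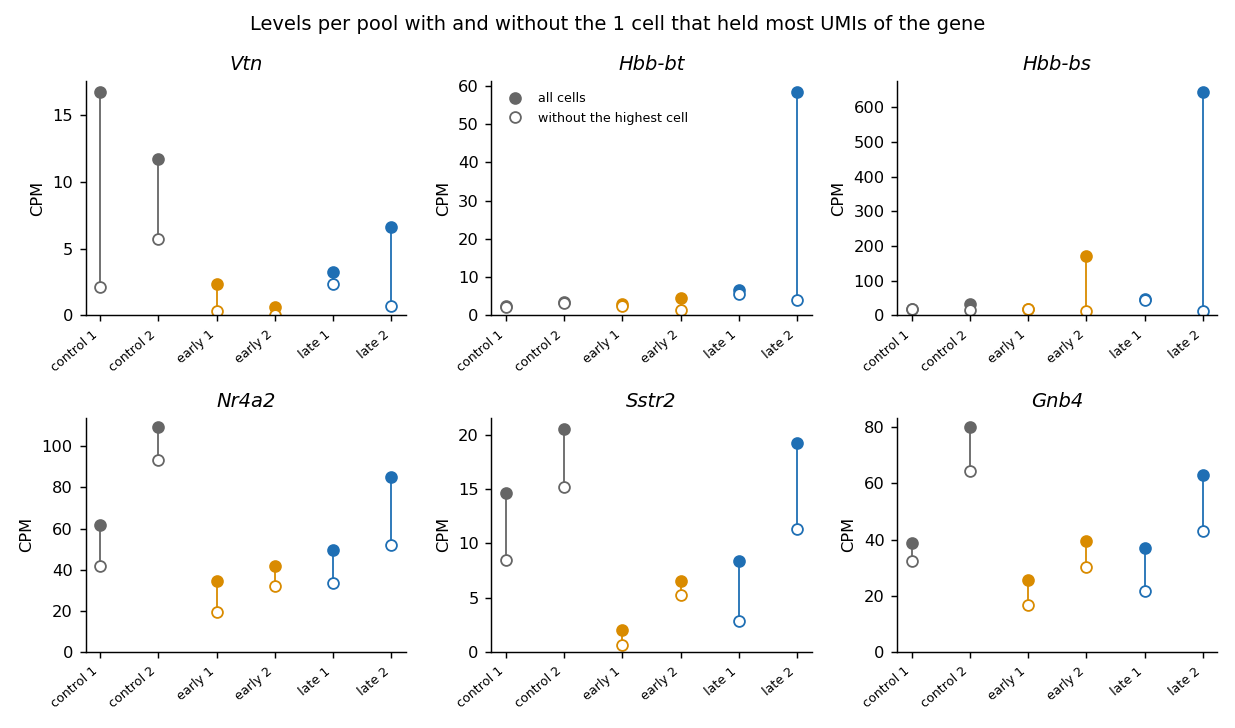
CPM per pool, without TMM scaling, of 6 genes from the stage comparisons, with all layer 2/3 cells (filled points) and without the 1 cell that held most UMIs of the gene (open points). Removing 1 cell moves Hbb-bs in late replicate 2 from 644 to 13.4 CPM, while Nr4a2 moves from 34.6 to 19.3 CPM in early replicate 1, from 85.0 to 51.8 CPM in late replicate 2 and from 109 to 93.4 CPM in control replicate 2.

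Among genes not called in the late comparisons, Gm10288, C230038L03Rik and Gm9843 had the smallest p-values with no overlap against control, and Nr4a2, Gm10288 and Crh against early. Crh, the peptide that starts the hormonal stress response, was 2.31 and 2.56 CPM in early and 11.8 and 14.1 CPM in late (log2 fold change 2.83 ± 0.62 SE, edgeR adjusted p = 0.816), with 15.4% of its UMIs in 1 cell. The value was 2.52 with either control pool left out in turn (adjusted p = 0.0761 without control replicate 1 and 0.106 without control replicate 2). Nr4a2 was 1.21 ± 0.21 higher in late than in early on the log2 scale without passing the threshold (adjusted p = 0.150). It was 1.22 without control replicate 1 (adjusted p = 0.00418) and 1.21 without control replicate 2 (adjusted p = 0.00453), where the early pools alone supply the spread. C230038L03Rik, a gene of unknown role, was 0.438 and 1.02 CPM in control and 3.93 and 18.7 CPM in late (3.91 ± 0.75, adjusted p = 0.356). It was 4.13 without control replicate 1 (adjusted p = 0.00582) and 3.00 without control replicate 2 (adjusted p = 0.878). Gm10288 and Gm9843 are predicted genes whose reads may belong to related copies, and their values are uncertain.

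Of the genes induced by neuronal activity, Nr4a2 alone was called between stages. Nr4a2 also marks some cortical neurons, and 25 members held 67.6% of its UMIs. Whether its call reflects activity or the number of such cells was not tested. Fos, the immediate early gene that drives the Cre of these mice, was 123 and 126 CPM in control, 119 and 144 CPM in early, and 142 and 141 CPM in late, without TMM scaling. Arc, which regulates AMPA receptor traffic, was 102 and 119, 108 and 123, and 139 and 113 CPM in the same order. For both genes the early and control means differed by less than the 2 early pools did, and the late against control log2 values were 0.21 for Fos and 0.21 for Arc (edgeR adjusted p = 0.952 for both). Egr1, an immediate early transcription factor, was 300 and 657 CPM in control, 541 and 591 CPM in early, and 510 and 652 CPM in late, and the low value belonged to control replicate 1. Npas4, a transcription factor induced by calcium entry, averaged 118 CPM ± 35.2 (SD, n = 2) in control, 129 ± 33.7 in early and 111 ± 18.9 in late. Bdnf, a neurotrophin that rises later after activity, averaged 253 ± 45.7, 258 ± 19.3 and 235 ± 11.8 CPM, and Nptx2, a secreted organizer of excitatory synapses, 108 ± 34.6, 116 ± 19.0 and 104 ± 18.9 CPM. Tissue was taken 3 days after labelling, and these levels describe the time of collection, after papain digestion. Of 21 immediate early genes, 2 in early against control were lower at an unadjusted p under 0.05 (1.1% of all genes) and none higher, with a median log2 value of -0.04. In late against control 3 were higher (2.71% of all genes) and 1 lower (1.83%), with a median of 0.17, beside a median of -0.0048 over all genes. In late against early 4 were higher (1.45%) and 1 lower (1.21%), with a median of 0.15. Of 18 secondary response genes 15 had a positive late against control value (49.2% of all genes), with a median of 0.21, and Vgf, a secreted neuropeptide precursor, was 201 and 319 CPM in control, 382 and 388 CPM in early, and 282 and 397 CPM in late.

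**Figure D4:**
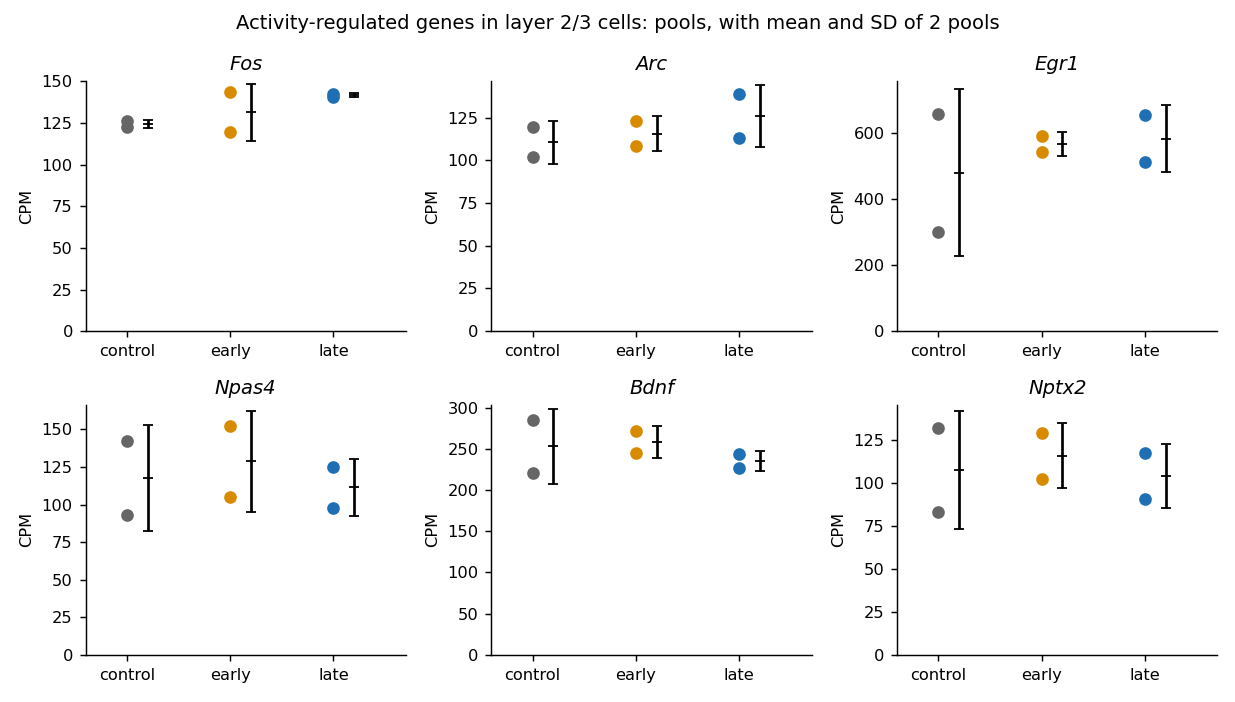
CPM of 6 activity-regulated genes in layer 2/3 cells by training stage, without TMM scaling, with a point per pool and the mean and SD of the 2 pools beside them. The control pools overlap those of each trained stage for Arc, Egr1, Npas4, Bdnf and Nptx2. For Fos the late pools lie at 142 and 141 CPM and the control pools at 123 and 126 CPM.

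Synaptic, channel and guidance genes had no call in any stage comparison, where at most 0.0169% of all genes were called. In late against control, 4 of 30 voltage-gated channel genes and 3 of 26 presynaptic genes were lower at an unadjusted p under 0.05 (1.83% of all genes), and 1 of each was higher (2.71%). A positive value was found for 10 of 30 channel, 4 of 26 presynaptic, 5 of 27 postsynaptic, 7 of 22 glutamate receptor and 15 of 31 guidance genes, against 49.2% of all genes. The median log2 values of late against control were -0.07 for 22 glutamate receptor genes, -0.12 for 27 postsynaptic genes, -0.11 for 26 presynaptic genes, -0.02 for 31 axon guidance genes and -0.07 for 30 voltage-gated channel genes. Grin2b averaged 798 CPM ± 77.1 (SD, n = 2) in control, 841 ± 22.7 in early and 779 ± 110 in late. Nrgn, a calmodulin-binding protein of dendrites, was 7564 and 7099 CPM in control, 6855 and 6115 CPM in early, and 5989 and 5288 CPM in late, without TMM scaling. The late pools lay below the control pools, with a log2 fold change of -0.35 that did not pass the threshold (edgeR adjusted p = 0.952). Penk was lower in both trained groups without a call, at -0.56 in early (edgeR adjusted p = 0.999) and -0.36 in late (adjusted p = 0.952). Of 13 heat shock genes, 11 had a positive late against control value (49.2% of all genes), with a median of 0.13; Hspa8, a constitutive chaperone, was 736 and 676 CPM in control and 772 and 1126 CPM in late.

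To ask whether the hemisphere opposite the trained forelimb differed, contralateral and ipsilateral libraries were compared within the 4 trained pools with edgeR and the pool as a block. Of 10004 genes tested, 7 were called (0.07%). Among them, Mbp, which encodes myelin basic protein, was higher on the contralateral side, and Hbb-bs, Hba-a1, Hba-a2 (globins), Cx3cr1 and Gnb4 were lower. DESeq2 called none, with 33 genes at an unadjusted p under 0.05. Of the 7, Cx3cr1 and Gnb4 alone had the same sign in all 4 pools. Cx3cr1, a chemokine receptor of microglia, was 1.48 and 25.0 CPM on the contralateral and ipsilateral sides of early replicate 1, 3.33 and 4.69 CPM in early replicate 2, 3.97 and 8.84 CPM in late replicate 1, and 0 and 15.6 CPM in late replicate 2. Its log2 fold change was -2.63 ± 0.49 (SE, edgeR adjusted p = 0.00719), and in all 6 pools its highest cell was scored as a doublet. All 7 microglial genes tested had negative values at an unadjusted p under 0.05 (2.54% of all genes, in that direction), and all 4 oligodendrocyte genes positive ones (2.35%); their part in the hemisphere result was not tested.

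Gnb4 was 17.7 and 31.7 CPM on the contralateral and ipsilateral sides of early replicate 1, 22.2 and 64.1 CPM in early replicate 2, 21.9 and 56.0 CPM in late replicate 1, and 58.5 and 70.7 CPM in late replicate 2. The ipsilateral side was higher in 4 of 4 pools, with a log2 fold change of -0.92 ± 0.19 (SE, edgeR adjusted p = 0.0184). In each of the 4 pools the cell with most Gnb4 UMIs was ipsilateral, and it held 27 of 76, 15 of 61, 33 of 79 and 31 of 95 UMIs, in the order early 1, early 2, late 1 and late 2. The part of these cells in the call was not tested. The call was lost without early replicate 2 (-0.77, adjusted p = 0.118) and without late replicate 1 (-0.79, adjusted p = 0.202). Nr4a2 was lower on the contralateral side in 4 of 4 pools without passing the threshold (-0.79 ± 0.19, adjusted p = 0.164). Its highest cell was ipsilateral in all 4 pools too, with 46 of 103, 15 of 64, 35 of 106 and 51 of 128 UMIs in the same order. Npas4 (-0.30 ± 0.11, adjusted p = 0.805), Bdnf (-0.25 ± 0.09, adjusted p = 0.805) and Nptx2 (-0.25 ± 0.11, adjusted p = 0.990) were also lower in 4 of 4 pools without a call. Fos, Arc and Egr1 were looked at too, and their hemisphere values are not given here. The share of all genes that were lower in 4 of 4 pools is not given either, so these signs have no background. Of the 21 immediate early genes 3 were lower at an unadjusted p under 0.05 (2.54% of all genes) and none higher (2.35%), with a median of -0.05 beside 0.0085 over all genes. Tnnc1, a troponin C gene, came next by p-value (-0.76 ± 0.17, adjusted p = 0.0750). Of the Hbb-bs UMIs, 950 of 970 in late replicate 2 and 242 of 263 in early replicate 2 lay in 1 ipsilateral cell each. The part of these cells in the globin calls was not tested. Without late replicate 2 the hemisphere value of Hbb-bs was -2.01 (adjusted p = 0.0567), that of Hba-a1 -1.95 (0.154) and that of Hba-a2 -1.31 (adjusted p = 1.00). The Mbp value was 0.57 without early replicate 1, 0.40 without late replicate 1 and 0.79 without late replicate 2, and in each case it was not called.

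The reporter was read through wpre, because tdtomato itself gave 2 UMIs in 2 members. The Ai9 transgene is known to carry a WPRE, a viral RNA element, behind tdTomato, but the sequence behind the wpre entry of these files was not checked, and every reporter value below depends on that reading. At least 1 wpre UMI was found in 26.0% and 29.5% of members in the control pools, 36.2% and 12.8% in the early pools, and 27.1% and 14.8% in the late pools. The control mice, which were labelled without training, lay within the range of the trained ones. The early minus control difference was -3.25 percentage points and the late minus control difference -6.83 points (exact permutation p = 1.00 and 0.667, two-sided, 2 against 2 pools, where 0.333 is the smallest p). Without control replicate 1 these differences were -5.02 and -8.60 points, and without control replicate 2 -1.48 and -5.06 points. The early minus control difference was -15.0 points without early replicate 1 and turned to 8.48 points without early replicate 2. The late minus control difference was -13.0 points without late replicate 1 and -0.66 points without late replicate 2. Contralateral and ipsilateral libraries differed by 0.951 points (exact sign-flip p = 0.750 over 4 pools, where 0.125 is the smallest). A single UMI is weak evidence of recombination, because free RNA reaches every droplet. Microglia, the comparison cells, carried Fos themselves (609 CPM) and held wpre in 5.92%, 7.76%, 10.2%, 5.18%, 8.03% and 3.58% of cells at median depths of 1377 to 2783 UMIs. Members and microglia were then thinned to 3000 UMIs, which left out every cell with fewer. Of 11217 microglia, 1736 were deep enough (15.5%, 37 in late replicate 2 to 704 in early replicate 1), as were 1333 of the 1389 members. In these cells the mean shares were 12.0% ± 4.34 (SD, n = 6) and 11.7% ± 2.00 (SD, n = 6), a difference of 0.309 points (exact sign-flip p = 0.875). The shallower microglia were not part of this comparison. At 2 or more wpre UMIs in the thinned cells, members were higher than microglia in every pool, a description with no test. In control, early and late order, the shares were 6.69%, 2.26%, 4.06%, 2.34%, 5.64% and 2.25% in members. In microglia they were 1.00%, 2.04%, 0.994%, 1.06%, 0.917% and 0%.

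Many wpre UMIs in 1 cell were more frequent in members than in microglia. The threshold of at least 5 UMIs was chosen after the counts per cell were seen. It was met by 41 members (2.95%), which held 632 of the 1018 wpre UMIs in members (62.1%), with up to 47 UMIs in 1 cell, while 242 members held exactly 1 UMI. In the pools it was met by 4.72% and 1.59% of members in control, 3.38% and 1.32% in early, and 5.91% and 1.09% in late. Only 6 of 11217 microglia met it (0.0535%). The mean share over pools was 2.91 points higher in members than in microglia and 2.64 points higher than in layer 6 cells (0.364% of cells), in 6 of 6 pools each (exact sign-flip p = 0.03125, the smallest that 6 pools give; 4 such comparisons between classes were made, adjusted p = 0.0625). It was -0.997 points against layer 4/5 cells (4.11% of cells; higher in 2 of 6 pools, exact p = 0.188) and 0.585 points against layer 5 cells (2.13% of cells; higher in 4 of 6 pools, exact p = 0.344). Median depth was 9192 UMIs in members, 6471.5 in layer 4/5, 9360.5 in layer 6 cells and 1884 in microglia, and shares at this threshold were not compared at equal depth. At this threshold the late minus control difference was 0.346 points (exact p = 1.00) and the early minus control difference -0.804 points (exact p = 0.667), and the 2 pools of each stage differed by more than the stage means did. Replicate 1 was the higher pool in each stage, and replicate 1 of control and of late were also the pools of barcode class A.

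**Figure D5:**
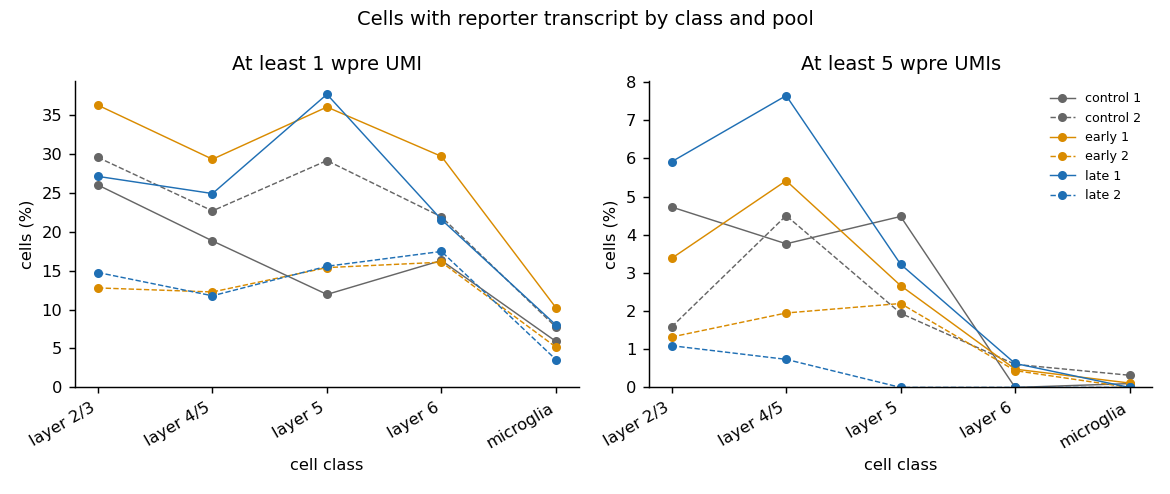
Percentage of cells with at least 1 (left) and at least 5 (right) wpre UMIs in layer 2/3 cells, 3 other projection neuron classes and microglia, with 1 line per pool (solid for replicate 1, dashed for replicate 2). On the right, layer 2/3 and layer 4/5 cells lie above layer 6 cells and microglia in every pool, from 1.09% to 5.91% in layer 2/3 cells against at most 0.628% in layer 6 cells.

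To ask whether wpre-positive members differed in other genes, members with at least 1 wpre UMI were compared with the rest within each pool (edgeR, pool as a block, 6 pools). Of the 345 positive members 242 held a single wpre UMI. The 2 libraries of a pool were summed, and library was not a term. In control replicate 1, 17 of the 29 members of the left library and 49 of the 225 of the right library were positive. The part of library in these values was not tested. Of 11035 genes, 6 were called (0.0544%). Among them, Hbb-bs, Hba-a1 and Hba-a2 were lower and Marcksl1 and Vtn higher in wpre-positive members. Hbb-bs and Hba-a2 lost the call without late replicate 2 (-0.93 and -1.40, edgeR adjusted p = 0.178 for both). Of the 40 Vtn UMIs in members of control replicate 1, 35 lay in 1 cell. Hba-a1 alone had the same sign in every pool (log2 fold change -1.85 ± 0.29 SE, edgeR adjusted p = 2.72e-04), and it lost the call without late replicate 2 (-1.06, adjusted p = 0.178). It was 4.87 and 10.9 CPM in positive and negative members of control replicate 1, and 0 and 232 CPM in those of late replicate 2, where 283 of 290 UMIs lay in 1 negative cell. Marcksl1, a regulator of the actin cytoskeleton, was higher in 4 of 6 pools (0.63 ± 0.11, adjusted p = 0.00317), and the call was lost without control replicate 1 (0.54), control replicate 2 (0.61) or late replicate 1 (0.48). DESeq2 called none, with 188 genes at an unadjusted p under 0.05. With members thinned to 3000 UMIs before they were divided, early replicate 2 and late replicate 2 had fewer than 20 positive cells and were left out. In the remaining 4 pools no gene was called, with 293 of 6819 genes at an unadjusted p under 0.05, while in the same 4 pools with all UMIs 4 genes were called.

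No immediate early gene was called between wpre-positive and wpre-negative members. Of 21, 17 had a positive value (51.6% of all genes) and 4 were higher at an unadjusted p under 0.05 (3.9% of all genes), none lower, with a median of 0.08 beside 0.0063 over all genes. Fos was higher in positive members in 5 of 6 pools (log2 fold change 0.29 ± 0.08 SE, edgeR adjusted p = 0.291), and its value was -0.27 in the 4 pools of the thinned cells (adjusted p = 0.997), against 0.34 in those 4 pools with all UMIs (adjusted p = 0.251). It was 169 and 105 CPM in positive and negative members of control replicate 1 and 139 and 143 CPM in those of early replicate 2. Arc (0.03) and Egr1 (-0.04) differed by less than their errors of 0.09 and 0.05. Of 30 voltage-gated channel genes, 24 had a negative value (48.4% of all genes) and 8 were lower at an unadjusted p under 0.05 (3.11% of all genes), none higher, with a median of -0.11. Scn1a, a sodium channel, had the value -0.32 ± 0.08 (edgeR adjusted p = 0.219). Adam33, a membrane protease (-0.91 ± 0.20, edgeR adjusted p = 0.0536), and Tshz3, a zinc finger transcription factor (-0.73 ± 0.17, adjusted p = 0.0883), were lower in 6 of 6 pools without a call. In the 4 pools of the thinned cells Tshz3 had the value 0.45 (edgeR adjusted p = 0.997), against -0.70 in those pools with all UMIs (adjusted p = 0.251). Gapdh, a glycolytic enzyme, was higher in 6 of 6 pools (0.19 ± 0.04, adjusted p = 0.0874). Positive members were deeper than negative ones in every pool, with medians of 7616 to 15510 against 6207.5 to 14999 UMIs.

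The change from control in members was compared with that in the layer 4/5 class in 1 edgeR model. Its terms were pool, class, class by stage and class by barcode class, with 2 residual degrees of freedom. With a pool left out, 1 residual degree of freedom remains, as in the stage fits. Of 12655 genes, the early change differed between the classes for 8 (0.0632%) and the late change for 7 (0.0553%). Among the early genes were Nr4a2, with a log2 difference of -1.60 ± 0.25 (SE, members minus layer 4/5, edgeR adjusted p = 5.98e-04), and Sstr2, with -2.73 ± 0.48 (adjusted p = 0.00410). Both lost the call without early replicate 1, at -1.17 (adjusted p = 0.341) and -1.60 (adjusted p = 1.00). Without control replicate 1 the values were -1.46 and -2.59, and without control replicate 2 -2.63 and -3.74, for Nr4a2 and Sstr2. The member side of the Nr4a2 value includes the 25 cells rich in it, whose part in this difference was not tested. Among the other called genes were 4 globin genes, the oligodendrocyte genes Cldn11 and Mag, and Vtn, which mural and other vascular cells make. None of the 21 immediate early genes other than Nr4a2, and none of the receptor, synaptic, guidance or channel genes, was called, and DESeq2 with the same model called no gene in either comparison, with 24 and 21 genes at an unadjusted p under 0.05.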

How the data were processed

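Single-cell RNA libraries of the motor cortex (12, in 6 pools of 2 mice) were analysed. The deposited values are raw UMI counts per gene and cell, made by the authors with Cell Ranger 3.1.0 against GRCm38 (mm10) per the submitters' processing notes, while the file headers name software 3.0.2. The members and gene lists were chosen with earlier results of these data known. Cells were filtered and members chosen by the counts given in the report. Member UMIs were summed per pool (1506637 to 3841416 UMIs) and tested with edgeR 4.0.16 (quasi-likelihood, TMM, filterByExpr) in R 4.3.3. Stage was tested with barcode class as a term. It was inferred from shared cell barcodes and, in these pools, cannot be told apart from 1 labelled batch. Hemisphere and reporter were tested with the pool as a block, because both parts of a pair carry the labels of the same mice. For the control pools, which enter the reporter test, this could not be settled. Library was not a term of the reporter test. Doublets were scored with Scrublet in scanpy 1.11.5. Genes named are, per comparison, those called and those with the smallest p-values whose groups did not overlap, and for levels the 15 highest and 15 lowest against both other classes. Scn1a and the genes that describe the Otof-positive and the Nr4a2-rich cells were named after their values were seen. DESeq2 1.42.0, other filters and thinning to 3000 UMIs were alternatives. The stage fit was also run on simulated counts with genes changed in late, and the outcome is not given here. A few genes are not reported here. Shares were compared with exact permutation tests.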

Additional observations from a re-analysis of the deposited data

Results flagged for a closer look

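For each gene below, the change from control differed between layer 2/3 cells and the layer 4/5 class, by the interaction term of edgeR, and values are layer 2/3 minus layer 4/5 on the log2 scale. In early against control these were Nr4a2 (-1.60), Sstr2 (-2.73), Vtn (-5.28) and the globin genes Hba-a1 (6.44), Hba-a2 (6.82), Hbb-bs (6.21) and Hbb-bt (5.83). In late against control they were Cldn11 (12.15), Mag (7.29), Hba-a1 (4.40), Hba-a2 (4.25), Hbb-bs (4.33) and Hbb-bt (4.17). The stage fit of layer 2/3 cells alone gave smaller early against control values for the globin genes. They were 1.08 for Hba-a1, 0.75 for Hba-a2, 0.74 for Hbb-bs and -0.42 for Hbb-bt, and none was called. The early globin differences thus exceeded the change in layer 2/3 cells, and the layer 4/5 levels are not given here. For most of the flagged genes a single layer 2/3 cell held most UMIs in a pool. In late replicate 2, all 13 Cldn11, all 17 Mag and 283 of 290 Hba-a1 UMIs lay in 1 cell each. The Cldn11 value is set against control pools without UMIs and depends on the prior count, so it is no measure of size. Without late replicate 2 Cldn11, Mag, Hba-a2 and Hbb-bt were no longer called in the late comparison (4.63, 0.56, 1.49 and 0.96), and without control replicate 2 they were not called either (4.34, 0.54, 1.47 and 0.94). The late values of Hba-a1 and Hbb-bs stayed called but were 1.94 and 1.69 without late replicate 2 and 1.93 and 1.67 without control replicate 2. Without control replicate 2 the early values were 3.76 for Hba-a1, 3.74 for Hba-a2 and 3.32 for Hbb-bs, -2.63 for Nr4a2 and -9.26 for Vtn. Vtn was not called without early replicate 2 (-1.94), and Hbb-bt in early was not called without control replicate 2 (2.46).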

How the results depend on the processing

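With no filter on low counts the genes called were 20 (early against control), 49 (late against control), 26 (late against early), 29 (hemisphere), 23 (reporter), and 14 early and 12 late for stage by class. DESeq2 called 1 in late against control and 0 for hemisphere, reporter and both stage by class comparisons. Without the barcode class term the stage counts were 0, 1 and 1 (162 genes at an unadjusted p under 0.05 in the first). With both Cux2 and Otof required they were 0, 1 and 0 (edgeR, 224 and 302 at an unadjusted p under 0.05 for the zeros), with doublets removed 0, 0 and 1 (265 and 548), and with pool sums thinned 1 in each late comparison. Leaving out 1 pool gave 8 to 29, 7 to 195 and 5 to 53 for stage, 3 to 18 for hemisphere, 3 to 9 for reporter, and 8 to 21 and 7 to 30 for stage by class; the stage fits then have 1 residual degree of freedom, and without control replicate 1 or late replicate 1 barcode class A has 1 pool. Without the replicate block by pool 1 hemisphere gene was called. With at least 2 wpre UMIs 13 reporter genes were called in the 3 pools with at least 20 positive cells, against 10 in those pools with 1 UMI. With thinned cells 0 were called (293 at an unadjusted p under 0.05) in 4 pools, against 4 in those pools with all UMIs; both same-pool fits were added after the data were seen.

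Among genes called in the main or the alternative analysis, signs reversed for Hbb-bs in early against control without early replicate 2 (-1.54, and -1.65 to 1.66 leaving out 1 pool), Marcksl1 in late against control without late replicate 1 (-0.97, to 0.75) and Hbb-bs by reporter in thinned cells (0.55, in 4 pools; -0.48 in those pools with all UMIs, -0.93 without late replicate 2). Values called in neither also turned sign, among them Fos (-0.27) and Tshz3 (0.45) by reporter in thinned cells and Hba-a1 in early against control with both genes required (-2.29). Of 310 pairs of a gene and a comparison, 182 had another sign under at least 1 alternative. The layer 2/3 share, early minus control, was 0.245 points with both genes required and -2.66 to 0.0362 (without early replicate 2) leaving out 1 pool. The reporter share by tdtomato was 0.242, 0.273 and 0.0317 points (early minus control, late minus control, late minus early). With at least 5 wpre UMIs it was 0.346 (late minus control) and 1.15 (late minus early), and late minus early in thinned cells was 0.940. Leaving out 1 pool gave -15.0 to 8.48 for early minus control and -15.3 to 8.15 for late minus early. Contralateral minus ipsilateral was -0.494 (tdtomato), -1.07 (thinned), -0.753 (at least 5 UMIs) and -0.500 to 3.67 leaving out 1 pool. Layer 2/3 minus layer 4/5 was 4.45 points with 1 UMI, 0.614 with 2, -0.997 with 5, -0.350 thinned, -0.383 by tdtomato and 3.90 to 5.23 leaving out 1 pool. The cause of these shifts was not tested. The threshold of 5 wpre UMIs was added after the data were seen.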
